A study of Schizosaccharomyces pombe with 6 samples.

Results

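The transcripts described here are those of control fission yeast cells, Schizosaccharomyces pombe, on day 6 of chronological ageing. In this model of ageing, a culture is left to use up its medium and enter stationary phase, and the loss of viability of the arrested cells is followed over days. A gene was included when it exceeded 1 CPM, that is 1 count per 1000000 gene counts of the library, in all 3 libraries of empty-vector control cells (evc). Of the 6952 genes in the table, 5419 met this rule. The series held 6 libraries, of which the 3 evc libraries were used and the other 3, from cells that overexpress a long non-coding RNA, were not. The evc cells were of the 972h-/leu1-32 background, carried the empty plasmid pJR1-41XL, and were grown and aged in the minimal medium EMMG as 3 cultures, which the labels number as biological replicates. Total RNA was depleted of rRNA and counted by strand, so the values are shares of the remaining RNA and not amounts per cell. In bulk samples such as these, fewer cells holding a transcript and less of it per cell cannot be told apart.

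Stationary-phase fission yeast cells stop dividing, lower protein synthesis and raise stress protection. In growing cells, mRNAs for ribosomal proteins and glycolytic enzymes are among the most abundant. Under nutrient limitation, the Tor kinases and the stress-activated kinase Sty1 with its transcription factor Atf1 are known to shift expression towards heat shock proteins, trehalose and glycerol metabolism, autophagy and nutrient uptake.

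The evc libraries held 6977373, 5839863 and 6444327 counts for replicates 1, 2 and 3. A count of 3 was worth 0.43, 0.514 and 0.466 CPM. The genes above 1 CPM held 99.92%, 99.93% and 99.93% of all counts. They comprised 4714 of 5111 protein-coding genes (92.2%), 625 of 1387 long non-coding RNA genes (45.1%), 26 of 61 snoRNA genes, 17 of 32 pseudogenes, 3 of 6 snRNA genes and 8 of 171 nuclear tRNA genes, as RefSeq classes them. Of the other 1533 genes, 415 had no count in any evc library. Just inside the threshold stood the phosphatase gene ppa3, at 1.0, 2.91 and 2.17 CPM, and SPNCRNA.1513. Just outside stood SPAC16E8.18, at 3.15, 1.37 and 0.931 CPM, and SPNCRNA.1081. The lncRNA aal1 was outside as well, at 0.573, 0.342 and 0.621 CPM in these control cells, and so was SPNCRNA.401, at 1.0, 0.514 and 0.466 CPM.

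Expression was concentrated in few genes. The 10 highest genes of each library took 16.4%, 15.7% and 15.6% of its counts, the 50 highest 33.9%, 34.4% and 34.5%, and the 100 highest 43.5%, 44.4% and 44.5%. In replicates 1, 2 and 3, 152, 138 and 139 genes were enough to reach 50% of the counts, and 1543, 1396 and 1398 genes to reach 90%. The median gene stood at 30.2 CPM and the highest at 30585 CPM, averaged over the 3 libraries. By the same mean, 1391 genes exceeded 100 CPM and 181 exceeded 1000 CPM.

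A pyruvate decarboxylase gene and a mitochondrial locus took the largest shares of reads. The transcript of pdc201, whose enzyme turns pyruvate into acetaldehyde for ethanol formation, had 33677, 29339 and 28739 CPM in replicates 1, 2 and 3 (30585 ± 2695, SD, n = 3). The mitochondrial locus SPMIT.01, which the annotation used here does not name, had 34896, 25820 and 27102 CPM. Replicate 1 was above the other libraries for both. Next came lsd90, at 19855, 19777 and 18813 CPM, and mfs1, which encodes a membrane transporter of the major facilitator family, at 20192, 13212 and 13220 CPM. The values of lsd90 differed little among the libraries, while mfs1 was highest in replicate 1.

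Chaperone and stress genes followed. The Hsp70-type chaperone gene ssa1 had 11646, 17359 and 16578 CPM, and the small heat shock protein gene hsp16 had 8122, 10048 and 9736 CPM. The stress-responsive gene rds1 was at 5754, 14330 and 12843 CPM, so that its rank of 6 by mean CPM rested on replicates 2 and 3. The heat shock protein gene hsp9 ran the other way, at 8691, 5503 and 6099 CPM. Replicate 1 was thus the lowest library for ssa1, hsp16 and rds1 and the highest for hsp9.

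Genes of central metabolism were also among the 30 highest. The glyceraldehyde-3-phosphate dehydrogenase gene tdh1 was at 8961, 8763 and 8866 CPM, the steadiest of the 10 highest genes. Its second copy gpd3 was at 6112, 7525 and 7656 CPM, phosphoglycerate kinase pgk1 at 7106, 9057 and 10088 CPM, and enolase eno101 at 6016, 7452 and 7379 CPM. The leucine synthesis gene leu3, for 2-isopropylmalate synthase, was at 8484, 9234 and 9502 CPM. The one-carbon enzyme gene shm1, a serine hydroxymethyltransferase, was at 8340, 7998 and 7264 CPM. The glycerol dehydrogenase gene gld1 was at 9098, 6209 and 6136 CPM, the fatty acid desaturase gene ole1 at 6018, 5200 and 5482 CPM, and ura1, which starts pyrimidine synthesis, at 4079, 4694 and 4640 CPM. Replicate 1 was the lowest library for gpd3, pgk1, eno101, leu3 and ura1, and the highest for tdh1, shm1, gld1 and ole1.

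**Figure D1:**
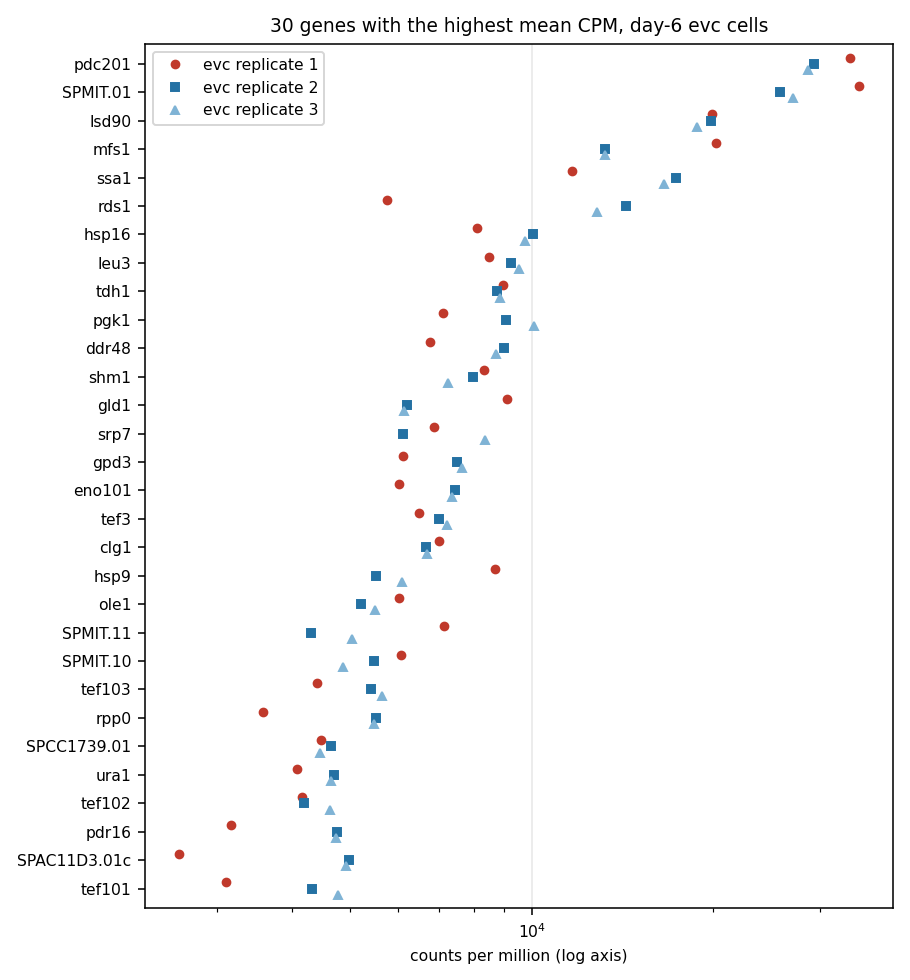
CPM of the 30 genes with the highest mean, in evc replicates 1, 2 and 3 (points, log axis), ordered by mean from top to bottom. The points run from 34896 CPM for SPMIT.01 in replicate 1 to 2600 CPM for SPAC11D3.01c in replicate 1, and rds1 shows the widest gap between replicate 1 and the other libraries.

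Translation genes were also among the top 30. The elongation factor gene tef3 had 6492, 7012 and 7238 CPM. The EF-1 alpha genes tef101, tef102 and tef103 averaged 4064 ± 854, 4328 ± 265 and 5154 ± 659 CPM (SD, n = 3). They are near-identical copies, and reads that map to several copies are by default not counted. Their values may therefore be too low, and the split among them is uncertain. The ribosomal stalk protein gene rpp0 was at 3578, 5505 and 5470 CPM and was the highest of the ribosomal protein genes.

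A CPM value is a share of reads and grows with gene length, so levels between genes were compared per kb of gene span, rescaled to 1000000 per library and called length-scaled units below. On that scale the highest transcript was srp7, the 7SL RNA of the signal recognition particle, which guides secretory proteins to the endoplasmic reticulum. It averaged 42664 ± 6176 length-scaled units (SD, n = 3), against rank 14 by CPM. It was followed by pdc201 (19314 ± 2711), hsp16 (16641 ± 1159), hsp9 (14516 ± 4397) and SPAC11D3.01c (14066 ± 4064), which encodes a protein of the Con-6 family. Next were lsd90 (13161 ± 984) and the U17 snoRNA snR30 (12041 ± 638). The long genes moved down. The 6948-nt ura1 was at rank 194 per kb and rank 26 by CPM, and the zinc finger gene SPCC1739.01 was at rank 129 per kb and rank 25 by CPM. The 100 highest genes of the CPM ranking and the 100 highest of the per-kb ranking had 60 genes in common, which is 60% of each list. The mitochondrial loci had no matched length and were left out of the per-kb ranking and of the per-kb totals. The sequence of srp7 (RefSeq, ASM294v3) is shown because this 255-nt RNA leads the length-scaled ranking.
srp7 (chrI:4268662-4268916, plus strand): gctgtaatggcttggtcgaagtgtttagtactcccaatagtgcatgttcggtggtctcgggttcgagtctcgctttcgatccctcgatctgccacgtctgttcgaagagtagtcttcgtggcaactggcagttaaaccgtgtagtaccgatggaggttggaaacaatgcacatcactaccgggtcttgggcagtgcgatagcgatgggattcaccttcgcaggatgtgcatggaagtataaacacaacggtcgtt

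Other structured non-coding RNAs were present. Besides srp7, the highest genes of the SPNCRNA series were rrk1, the RNA of RNase P, at 2049, 2002 and 2346 CPM, and mrp1, the RNA of RNase MRP, at 1812, 1557 and 1666 CPM. The polyadenylated RNA prl53 came next, at 2382, 1139 and 1123 CPM, and was highest in replicate 1. Spin columns of the kind used are known to keep short RNAs less well, and the snoRNA, snRNA and tRNA values describe what was kept. In these libraries, the 53 genes with SPSNORNA identifiers, 21 of them above 1 CPM, held 0.504% ± 0.0255 of the counts (SD, n = 3), of which snR30 alone had 2570, 2539 and 2571 CPM. Per kb, where short genes weigh more, the same genes held 3.15% ± 0.331. The U2 snRNA gene snu2 had 454, 349 and 458 CPM. The 637 SPNCRNA genes above 1 CPM had a median of 5.73 CPM, against 36.6 CPM for protein-coding genes. All 1529 SPNCRNA genes together took 3.09%, 2.72% and 3.03% of counts, and srp7 supplied 0.688%, 0.610% and 0.835% of counts by itself. Per kb they took 7.86%, 6.45% and 7.79%.

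Functional classes were summed from lists of genes by name. Of the 100 highest genes by CPM, 54 belonged to a list. The 140 genes for cytosolic ribosomal proteins, all above 1 CPM, held the largest class share, 6.92% of counts in replicate 1 and 11.4% and 11.6% in replicates 2 and 3. Their median was 484 CPM, against 30.2 CPM over all genes described here. Per kb, where short genes weigh more, they made up 15.5%, 23.5% and 23.7%. The 9 elongation factor genes held 1.98%, 2.39% and 2.53% of counts, and the 23 initiation factor genes 0.798%, 0.796% and 0.771%. Ribosomal protein mRNAs were thus the largest of the listed classes in all 3 libraries on day 6.

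Among the classes of energy metabolism, the mitochondrial genome and glycolysis held the largest mean shares, 4.47% ± 0.747 and 4.24% ± 0.381 (SD, n = 3), which differed by less than the spread between libraries. The 13 glycolytic genes took 3.80%, 4.42% and 4.50% of counts, with 7 of them among the 100 highest genes. The 6 fermentation genes, 5 of them above 1 CPM, took 3.69%, 3.53% and 3.44%, of which pdc201 alone made up 3.37%, 2.93% and 2.87%. The alcohol dehydrogenase gene adh1 was far lower, at 242, 219 and 215 CPM. The second pyruvate decarboxylase gene pdc202 had 1755, 4597 and 4292 CPM and was lowest in replicate 1. The 16 TCA cycle genes took only 0.562%, 0.571% and 0.548%, led by the aconitase gene aco1 at 1613, 1522 and 1391 CPM. The 33 nuclear genes for the respiratory chain and ATP synthase took 0.365%, 0.315% and 0.303%. The mitochondrial genome itself took 5.32%, 3.93% and 4.16% over its 37 loci, of which 13 exceeded 1 CPM, and SPMIT.01 supplied 3.49%, 2.58% and 2.71%. The gluconeogenic gene fbp1, which is repressed when glucose is plentiful, was at 637, 597 and 580 CPM. Among the 8 hexose transporter genes, 6 exceeded 1 CPM, and the high-affinity glucose transporter gene ght5 was highest, at 2048, 998 and 999 CPM.

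Stress and protein quality genes formed the next group. The 25 chaperone genes took 3.94%, 5.60% and 5.41% of counts, led by ssa1, hsp16 and the mitochondrial Hsp70-type gene ssc1. The 21 genes of the core stress, trehalose and glycerol list took 2.70%, 3.28% and 3.20%, led by rds1, hsp9 and the calcium ATPase gene cta3. Of this, rds1 alone made up 0.575%, 1.43% and 1.28%, so the lower share in replicate 1 rested on this gene. Per kb the list took 3.53%, 3.36% and 3.31%. The trehalose synthase gene tps1 had 450, 634 and 659 CPM and the catalase gene ctt1 had 419, 470 and 451 CPM. The 19 antioxidant genes, 17 of them above 1 CPM, took 0.334%, 0.452% and 0.433%, led by the peroxiredoxin gene tpx1 at 678, 1503 and 1377 CPM. The 32 proteasome genes took 0.256%, 0.235% and 0.236%. The 31 autophagy and vacuolar protease genes took 0.778%, 0.583% and 0.583%, led by the vacuolar carboxypeptidase gene cpy1 at 2460, 1369 and 1359 CPM. The autophagy kinase regulator gene atg11 was at 552, 474 and 501 CPM.

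Biosynthesis and growth classes were smaller. The 66 amino acid synthesis genes, all above 1 CPM, took 2.32%, 2.44% and 2.40%, and leu3 alone was 0.848%, 0.923% and 0.95%. The 10 purine synthesis genes took 0.269%, 0.235% and 0.236%, the 10 histone genes 0.298%, 0.242% and 0.234%, and the 9 glucan synthesis genes of the cell wall 0.541%, 0.471% and 0.461%. The higher purine sum in replicate 1 rested on ade10, at 1400, 917 and 893 CPM. Replicate 1 was lowest for 7 of the 10 purine genes (70.0%, against 30.3% of all genes). The 17 replication and division genes together took 0.108%, 0.0983% and 0.0940%. The replication licensing gene cdc18 was near the threshold at 1.29, 1.71 and 0.466 CPM, and the G1/S cyclin gene cig2 at 4.73, 5.65 and 7.91 CPM. The G2/M cyclin gene cdc13 was higher, at 220, 189 and 183 CPM.

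**Figure D2:**
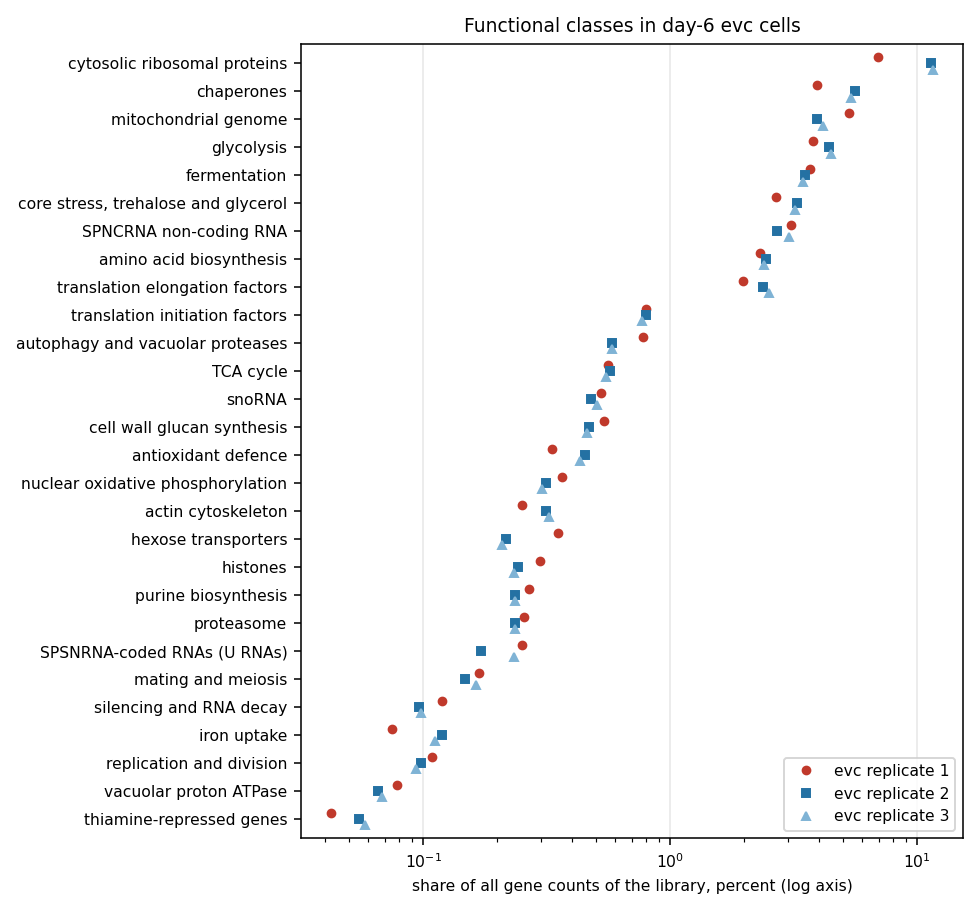
Share of each library's counts taken by the functional classes above 0.04% (percent, log axis), for evc replicates 1, 2 and 3 (points), ordered by mean share. Ribosomal protein genes lead with 6.92% in replicate 1 and 11.4% and 11.6% in replicates 2 and 3, and hexose transporters and the mitochondrial genome are highest in replicate 1.

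Marker genes were set beside the labels. The 6 stress markers (hsp9, hsp16, ctt1, tps1, gpd1 and ish1) summed to 20516, 18878 and 19280 CPM, against 1200, 1001 and 968 CPM for the 12 division markers, 11 of which exceeded 1 CPM. The stress sum came mostly from hsp16 and hsp9, at means of 9302 and 6764 CPM, and the division sum mostly from the histone gene htb1, at 600 CPM. Growing cells were not among the libraries used, so these sums have no reference level and do not test the stationary-phase label. The h- mating type makes M cells, but the M-factor pheromone genes mfm1, mfm2 and mfm3 lay between 0 and 1.71 CPM, and only mam1 and sxa2 of 6 M-cell markers exceeded 1 CPM in all libraries. All 4 P-cell markers did, up to 128 CPM for the protease gene sxa1, so pheromone markers did not separate the mating types here. Of 5 meiotic markers, mei4, a meiotic transcription factor gene, stood at 738, 451 and 490 CPM, while mes1, spo5, mei3 and rec8 lay between 2.95 and 15.4 CPM. The mating regulator gene ste11, which nitrogen starvation induces, had 499, 634 and 752 CPM.

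Replicate 1 stood apart from replicates 2 and 3. Across the 5419 genes, Pearson's r of log2 CPM was 0.970 between replicates 1 and 2, 0.972 between 1 and 3 and 0.988 between 2 and 3. The SD of the log2 ratio per gene was 0.61 for replicate 1 over 2, 0.59 for 1 over 3 and 0.39 for 2 over 3. With library totals, a difference beyond exact binomial counting error at the 95% level was seen for 55.3%, 55.9% and 26.8% of genes in these pairs. The median log2 ratio was 0.149, 0.137 and 0.005, and this offset enters the shares of the replicate 1 pairs. No pair agreed within this counting error, which takes each count as an independent molecule, and collapse of duplicates is not stated in the methods. Also with library totals, replicate 1 was the library farthest from the others for 3126 genes (57.7%), replicate 2 for 1152 (21.3%) and replicate 3 for 1141 (21.1%).

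Large differences were counted where replicate 1 lay at least 2-fold beyond the nearer of replicates 2 and 3. Replicate 1 was at least 2-fold above both for 201 genes, which is 3.71% of genes, and at least 2-fold below both for 94 genes, 1.73%. The same counts were 19 above (0.351%) and 42 below (0.775%) for replicate 2, and 18 above (0.332%) and 28 below (0.517%) for replicate 3. Both exact 95% intervals of the CPM ratio, which cover counting error only, left out 1 for 196 of the 201 genes and for 84 of the 94. With 1 library on one side there is no replicate error for this comparison and no test was made. The split depended on scaling. The median log2 ratio of all genes was 0.15 for replicate 1 over 2 and 0.14 for 1 over 3, and with TMM factors, which centre the libraries on their common genes, 115 genes were above and 151 below. The share of higher genes among those counted was then 43.2%, against 68.1% with library totals. TMM factors moved the medians of all genes to 0.004 and -0.013, which can only add to the genes lowest in replicate 1. Shares of all genes lowest or highest in replicate 1 are given with library totals only, so TMM counts of a class have no such share beside them.

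Genes for cytosolic ribosomal proteins made up 22 of the 94 low genes, 15.7% of the 140 against 1.73% of all genes. With TMM factors 46 of the 140 were at least 2-fold lower, against 151 of all 5419 genes. With size factors 44 were, against 148 of all 5419. Replicate 1 was the lowest library for 139 of the 140, under library totals and under every other scaling tried, and the exception was rpl3402, at 24.2, 18.2 and 15.8 CPM. Among all genes, replicate 1 was lowest for 30.3% and highest for 52.4% with library totals. The median log2 ratio of the 140 genes was -0.77 for replicate 1 over 2 and -0.80 for 1 over 3, and -0.02 for replicate 2 over 3. Single genes ranged widely within this. The gene rps1702 had 142 CPM in replicate 1, against 374 and 361 CPM in replicates 2 and 3, and rpl301 had 1092 CPM, against 2332 and 2239 CPM. The paralogs rpl1901 (736 CPM, against 1026 and 1024 CPM) and rpl1902 (159 CPM, against 222 and 190 CPM) differed less. Many ribosomal protein genes have near-identical copies, and reads that map to several copies are by default not counted. Their values may therefore be too low, and the split between paralogs is uncertain.

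The other parts of the translation apparatus did not all follow. All 9 elongation factor genes were lowest in replicate 1, and 3 of them (33.3%, against 1.73% of all genes) by at least 2-fold. These were eft202 (328 CPM, against 858 and 793 CPM), eft201 (230 CPM, against 471 and 496 CPM) and tif512 (453 CPM, against 908 and 948 CPM). The initiation factors were lowest in replicate 1 for 9 of 23 genes (39.1%) and highest for 14 (60.9%), and none differed by 2-fold. With library totals, as used for these counts, the shares over all genes were 30.3% lowest and 52.4% highest. With TMM factors replicate 1 was lowest for 11 and highest for 8.

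The promoters of ribosomal protein genes share the HomolD box, CAGTCACA, which acts as a core promoter element of these genes in fission yeast. In a window from 250 bases before to 50 bases after the RefSeq gene start, searched on both strands, it was found in 89 of the 140 genes (63.6%), against 136 of all 4714 protein-coding genes above 1 CPM (2.89%). The HomolE core ACCCTACC was found in 29.3% of the 140 and 1.70% of all. The 4 highest ribosomal protein genes with a HomolD box are shown from 5′ to 3′ on the strand of the gene, with the box in capitals.
rpl8 (chrII:2045406-2045465, plus strand): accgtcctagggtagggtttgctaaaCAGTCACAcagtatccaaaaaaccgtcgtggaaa
rps102 (chrI:898973-899032, minus strand): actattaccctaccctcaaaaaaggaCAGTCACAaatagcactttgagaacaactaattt
rpl6 (chrIII:1437040-1437099, plus strand): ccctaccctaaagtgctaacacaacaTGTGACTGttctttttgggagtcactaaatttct
rpl101 (chrIII:612602-612661, minus strand): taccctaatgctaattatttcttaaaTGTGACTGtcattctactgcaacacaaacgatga
In rpl6 and rpl101 the box lies on the opposite strand and reads TGTGACTG. The boxes start 43 to 57 bases before the gene start. Genes with and without the box in this window were both lower in replicate 1. The median log2 ratio of replicate 1 over 2 was -0.81 for the 89 genes with it and -0.70 for the 51 without, and over replicate 3 it was -0.81 and -0.80. The 47 other genes with the box had medians of -0.12 and -0.17, against 0.15 and 0.14 for all genes. Replicate 1 was lowest for 29 of these 47, against 1643 of all 5419 genes. The part of the box in the difference of replicate 1 was not tested.

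Chaperone genes were mostly lower in replicate 1 as well. Of 25 genes, 19 were lowest in replicate 1 with library totals (76.0%, against 30.3% of all genes). With TMM factors 23 were, a scale for which the share over all genes is not given. With library totals 3 were below by at least 2-fold, which is 12% of the list against 1.73% of all genes. The glyoxalase gene hsp3101 had 215 CPM in replicate 1, against 737 and 775 CPM in replicates 2 and 3. The mitochondrial disaggregase gene hsp78 had 609 CPM, against 1467 and 1412 CPM, and the co-chaperone gene sti1 had 516 CPM, against 1156 and 1166 CPM. Below the 2-fold mark, ssa2 was at 1897 CPM, against 4004 and 3732 CPM, and hsp104 at 1384 CPM, against 2369 and 2230 CPM. The heat shock element core GAANNTTC, to which heat shock factor binds, was found in 11 of the 25 chaperone promoters (44.0%), against 11.2% of all 4714. The 4 highest of these genes are shown with the core in capitals.
ssa1 (chrI:2297989-2298048, minus strand): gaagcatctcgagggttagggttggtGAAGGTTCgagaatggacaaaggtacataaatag
hsp16 (chrII:2661052-2661111, minus strand): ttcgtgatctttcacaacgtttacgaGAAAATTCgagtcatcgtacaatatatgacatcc
ssc1 (chrI:1725633-1725692, plus strand): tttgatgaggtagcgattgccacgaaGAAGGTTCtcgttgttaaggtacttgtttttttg
hsp90 (chrI:3891163-3891222, minus strand): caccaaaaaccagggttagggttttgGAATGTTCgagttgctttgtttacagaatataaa
The core is palindromic and reads the same on both strands. The stress list as a whole was not uniformly low. With library totals replicate 1 was lowest for 10 of the 21 genes of this list (47.6%, against 30.3% of all genes). It was highest for 8 (38.1%, against 52.4%), and with TMM factors lowest for 12 and highest for 6. The CRE core TGACGT, bound by Atf1 and Pcr1, was found in 33.3% of the 21 promoters and 5.98% of all.

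**Figure D3:**
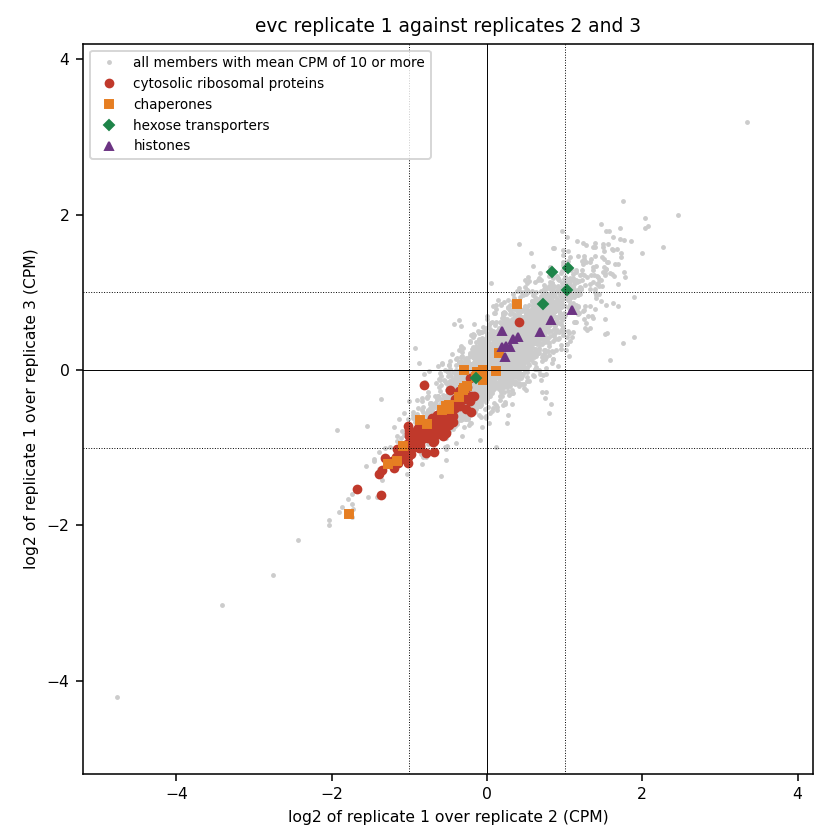
Log2 CPM ratio of evc replicate 1 over replicate 2 (horizontal axis) and over replicate 3 (vertical axis) for the 4012 genes averaging 10 CPM or more, 1 point per gene, with dotted lines at 2-fold. Ribosomal protein genes lie low on both axes around medians of -0.77 and -0.80, chaperone genes lie mostly below 0, and the histone genes and most hexose transporter genes lie above 0 (both axes share replicate 1).

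Hexose transporters were the listed class with the largest share above. Of 6 genes, 5 were highest in replicate 1 and 3 by at least 2-fold, 50.0% against 3.71% of all genes. These were ght5 (2048 CPM, against 998 and 999 CPM), ght3, a gluconate transporter gene (16.9 CPM, against 5.65 and 5.74 CPM) and ght4 (28.2 CPM, against 13.7 and 11.3 CPM). With TMM factors 1 of the 3 stayed past 2-fold, on a scale where 115 of all 5419 genes were. The exception was ght2, at 576 CPM, against 636 and 617 CPM. All 10 histone genes were highest in replicate 1 under library totals, TMM factors and size factors, none by 2-fold. With library totals replicate 1 was highest for 52.4% of all genes. The median log2 ratios of the histone genes were 0.31 and 0.41, and with TMM factors 0.17 and 0.26. With library totals the autophagy and vacuolar protease genes were highest in replicate 1 for 22 of 31 (71.0%, against 52.4% of all genes). With TMM factors they were highest for 18, and none was past 2-fold. Examples were cpy1 (2460 CPM, against 1369 and 1359 CPM), atg13 (292 CPM, against 165 and 162 CPM) and atg2 (413 CPM, against 231 and 221 CPM), and with library totals only atg16 passed 2-fold. Proteasome genes were highest in replicate 1 for 18 of 32 with library totals (56.2%, near the 52.4% of all genes) and lowest for 4. With TMM factors they were highest for 12 and lowest for 13.

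Single genes of other classes differed more. Among genes that averaged 10 CPM or more, the largest excess in replicate 1 was that of fub2, a homologue of the proteasome regulator PI31, at 466 CPM, against 45.7 and 50.9 CPM. It was 10.2-fold above replicate 2, with a counting interval of 8.99 to 11.6. The amino acid permease gene per1 had 614 CPM, against 170 and 194 CPM, and the unfolded protein sensor gene ire1 92.6 CPM, against 28.2 and 26.1 CPM. The exocyst gene sec3 had 198 CPM, against 64.6 and 60.2 CPM. The ubiquitin-conjugating enzyme gene ubc8 had 61.6 CPM, against 18.2 and 19.2 CPM. The gene pac2, whose product restrains sexual development, had 173 CPM, against 52.6 and 53.8 CPM. In all 5 of these genes replicates 2 and 3 lay close together.

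By the same measure, the gene farthest below was SPNCRNA.1611, a non-coding RNA on chromosome II, with 39 counts (5.59 CPM) in replicate 1, against 884 and 669 counts (151 and 104 CPM) in replicates 2 and 3. The phosphoketolase-family gene SPBC24C6.09c followed, at 12.5 CPM, against 133 and 102 CPM. The non-coding RNA SPNCRNA.1505, which lies across it on the other strand with an overlap of 2564 nt, had 44.4 CPM in replicate 1, against 11.1 and 15.7 CPM. Of 711 pairs of genes above 1 CPM that overlap on opposite strands by at least 50% of the shorter gene, this was the only pair with 1 gene at least 2-fold above and the other at least 2-fold below in replicate 1, and in 1 further pair both genes went the same way past 2-fold. The gene rds1 and SPAC343.21, which lies just upstream of it, were low together, SPAC343.21 with 2.44 CPM, against 16.4 and 15.2 CPM.

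Of the 6 thiamine-repressed genes and the 8 iron uptake genes above 1 CPM, 1 each was at least 2-fold lower in replicate 1. These are 16.7% and 12.5%, against 1.73% of all genes, but 1 gene in such short lists says little about a class. The thiamine synthesis gene nmt1, whose promoter in a weakened form is used in the pJR1-41XL plasmid series, had 48.0 CPM in replicate 1, against 180 and 171 CPM. The thiamine genes thi4 (23.9 CPM, against 26.9 and 27.6 CPM) and thi9 (198 CPM, against 209 and 215 CPM) differed far less. The siderophore iron transporter gene str1 had 249 CPM, against 829 and 751 CPM, while sib1, for ferrichrome synthesis, was at 406 CPM, against 281 and 280 CPM. Of the 8 iron uptake genes, 5 were highest in replicate 1 (62.5%, against 52.4% of all genes). Their median log2 ratios were 0.22 and 0.24 over replicates 2 and 3. Outside that list, the iron and zinc transporter gene fet4 had 5.30 CPM, against 17.6 and 17.5 CPM. The summed share of the 11 listed iron uptake genes was 0.0750% in replicate 1, against 0.119% and 0.112%. This lower sum rested on str1 and does not describe the list as a whole.

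**Figure D4:**
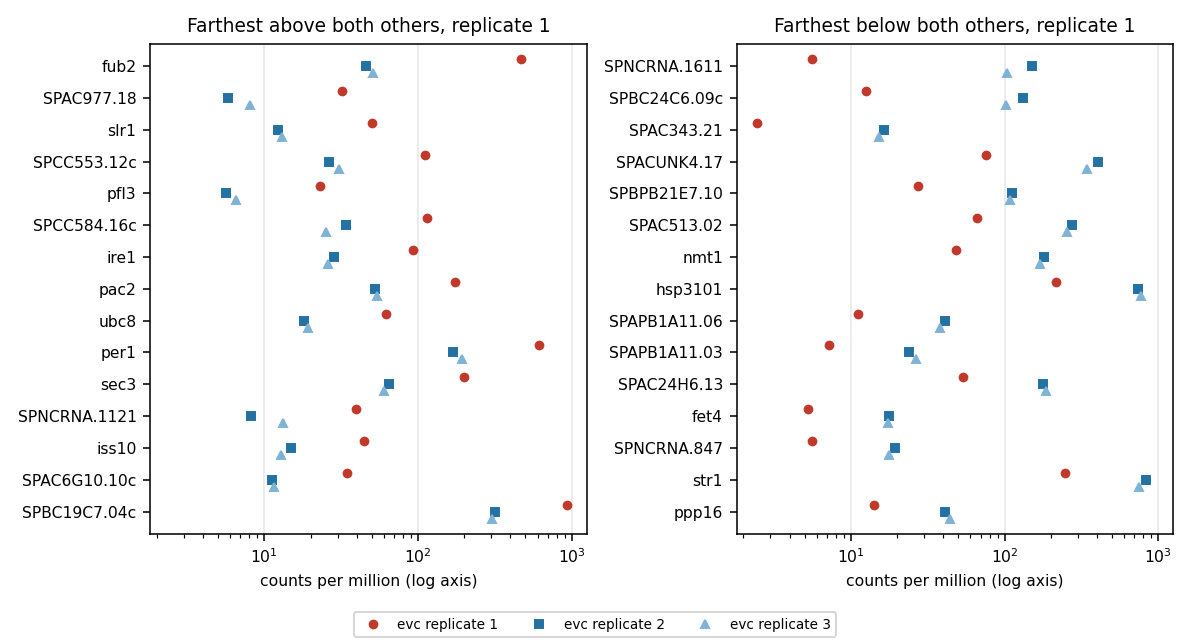
CPM in evc replicates 1, 2 and 3 (points, log axis) of the 15 genes farthest above (left) and the 15 farthest below (right) both other libraries in replicate 1, among genes averaging 10 CPM or more. In most rows replicates 2 and 3 lie close together, as for fub2 at 466 CPM in replicate 1, against 45.7 and 50.9 CPM.

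Gene length moved with the difference. Among the 4714 protein-coding genes, Spearman's rho between length and the log2 ratio was 0.19 for replicate 1 over 2, 0.18 for 1 over 3 and -0.01 for 2 over 3, across genes, which are not independent replicates. Without the ribosomal protein genes, which are short, it was 0.13, 0.12 and -0.02. The median log2 ratio of replicate 1 over 2 was 0.12 in the shortest of 5 equal length classes and 0.25 in the longest, without ribosomal protein genes. For GC content of the gene span, rho was -0.19, -0.17 and 0.04, and without ribosomal protein genes -0.14, -0.12 and 0.04. The 201 high genes had a median length of 1852 nt and the 94 low genes 1284 nt, against 1799 nt for all. The low genes included 22 ribosomal protein genes. The part of length, GC content and RNA quality in the difference of replicate 1 was not tested. By position, the high genes were 3.79%, 4.21% and 2.64% of the genes on chromosomes I, II and III, against 3.71% of all genes. Of the 157 genes within 100 kb of a chromosome end, 6.37% were high and 3.18% low, against 3.71% and 1.73% of all genes.

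**Figure D5:**
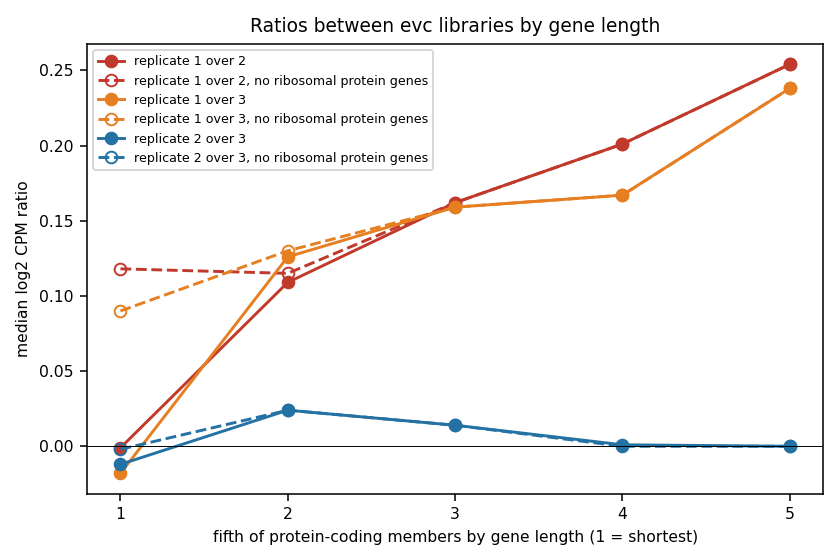
Median log2 CPM ratio between evc libraries (vertical axis) in 5 equal classes of the protein-coding genes by length (horizontal axis, 1 = shortest), with all genes (filled points) and without ribosomal protein genes (open points). The ratios of replicate 1 over 2 and over 3 increase with length to 0.25 and 0.24 in the longest class, while replicate 2 over 3 stays near 0.

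The classes differed in how much the libraries spread. The SD over the 3 libraries was 2.65 percentage points for the ribosomal protein share of 9.98% and 0.909 for the chaperone share of 4.99%. It was 0.0117 for the TCA cycle share of 0.561% and 0.0151 for the initiation factor share of 0.789%.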

How the data were processed

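The authors deposited raw gene-level counts of reads, neither normalised nor pooled. Per the methods of the study, the authors extracted total RNA on columns, removed rRNA, made directional libraries with molecular indices, and aligned reads with STAR 2.6.1a to the PomBase genome (build: not given in the sources used here), then counted whole gene features with HTSeq 0.12.3 with its reverse option, after quality checks with FastQC 0.11.2. By default, multi-mapped reads are not counted by HTSeq, which lowers counts of near-identical copies. Whether duplicate molecules were collapsed is not stated there, so intervals cover counting error only.

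CPM was computed from library totals (5839863 to 6977373 counts) with Python 3.11.15, pandas 2.3.3, NumPy 2.4.6 and SciPy 1.17.1. Of the 6952 identifiers, 6805 matched RefSeq ASM294v3, which gave symbols, biotypes, lengths and coordinates. It may differ from the authors' build. The evc group and its replicate numbers came from the labels. Replicate 1 was set against the nearer of replicates 2 and 3, with a call at 2-fold. The call was run on simulated data with counting error only and planted changes well past 2-fold. That run does not show how the call behaves at the wider spread of these libraries. No test was made. Of 34 gene lists, the rRNA list matched 0 genes, and 8 genes that a name pattern had caught were dropped for their annotated product. The members, lists and motifs were chosen with earlier results of these data known, and the HomolE core was added after the sequences were seen. Genes were named by rule: the 30 highest by CPM, the 15 next by length-scaled level, the 3 highest of each list, the 10 highest non-coding genes, the 15 farthest above and 15 farthest below in replicate 1 with a mean of 10 CPM or more, the genes next to the threshold, and aal1, SPNCRNA.401, rpl1901, rpl1902, ppb1 and act1. Markers came from a fixed list. Other list members were named after their values were seen.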

Additional observations from a re-analysis of the deposited data

How the results depend on the processing

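The number of genes above 1 CPM was 5419, against 3760 above 10 CPM, 6058 with at least 1 count, and 5495 to 5511 when each replicate was left out. The share of the 10, 50 and 100 highest genes was 15.9%, 34.2% and 44.1% on average. It was 15.1%, 33.3% and 43.2% among protein-coding genes and 16.4%, 37.0% and 49.4% per kb. The per-kb total leaves out genes without a matched length, among them the mitochondrial loci, which held 4.47% of counts. Per kb, ribosomal protein genes took 20.9% and core stress genes 3.40%, and fermentation genes 2.33%, against 3.87% of protein-coding counts. The genes at least 2-fold higher in replicate 1 numbered 201 of 5419, against 115 with TMM factors and 119 with median-of-ratios size factors. Among the 3760 genes above 10 CPM they numbered 105. The genes at least 2-fold lower numbered 94 of 5419, against 151 with TMM factors and 148 with size factors. They numbered 55 of the 3760 genes above 10 CPM and 180 of the 6058 with at least 1 count. Without replicate 2 or replicate 3, an alternative chosen after seeing the data, 364 to 382 genes were higher and 159 to 173 lower, since 1 library then stood for the other side. No paired analysis was possible because the 3 libraries form 1 group and no test was made. Depth limits values near 1 CPM, which rest on few counts, and with 3 libraries neither the cause of the gap of replicate 1 nor its frequency among such cultures was tested.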
